A study of Mus musculus with 20 samples.

Results

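The 8 genes of the urea cycle were followed in livers in which the RNA-binding protein HuR (gene ELAVL1) had been knocked down. The genes are CPS1, OTC, ASS1, ASL, ARG1, NAGS, SLC25A15 and SLC25A13, matched by gene name, ignoring case, in both tables. All 8 were found once among 60607 human genes and once among 55335 mouse genes, and all 8 passed the filter of a mean of at least 1 TPM in each table. TPM, a measure of transcript abundance, counts the reads of a gene per length of its transcript and scales every library to 1000000. Levels of different genes can thus be compared within a library, as far as the lengths used are apt.

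The urea cycle is how the liver disposes of ammonia from amino acid breakdown. NAGS makes N-acetylglutamate, the activator that CPS1 needs to join ammonia and bicarbonate into carbamoyl phosphate inside the mitochondrion, and OTC transfers that group to ornithine to give citrulline. In the cytosol ASS1 joins citrulline to aspartate, ASL splits the product into arginine and fumarate, and ARG1 splits arginine into urea and ornithine. SLC25A15 exchanges ornithine and citrulline across the inner mitochondrial membrane, and SLC25A13 (citrin) brings aspartate out of the mitochondrion. The complete cycle runs in hepatocytes, mostly in those near the portal vein, and inherited loss of any of these genes can raise blood ammonia.

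The livers came from 2 kinds of male mice. Wild-type (WT) livers were from C57BL/6 mice bought at 8 weeks of age and kept for 10 to 14 days before the experiment, with 6 mice given adenovirus carrying an shRNA against mouse HuR (HuR KD) and 6 given the LacZ control virus. Humanized livers were from TK-NOG mice, which are highly immune-deficient and carry a herpes simplex thymidine kinase transgene driven by the mouse albumin promoter. Ganciclovir, given at 8 to 9 weeks of age, kills the cells that express the transgene, and transplanted primary human hepatocytes then take their place; 4 of these mice received virus with an shRNA against human HuR and 4 received LacZ virus. Every mouse received 2000000000 pfu intravenously, and livers were taken after 7 days and a 4-h fast. Only mice with serum human albumin above 0.5 mg/ml, measured 8 to 12 weeks after transplantation, entered the humanized groups, so these mice were older than the WT mice. Their livers still hold mouse cells, but the humanized table lists human genes alone. The study names as a limit that the hepatocytes came from few donors, and the labels do not say which mouse had which donor. Within the liver the mouse albumin promoter directs the transgene to host hepatocytes, and the shRNA sequences of the HuR KD arms differ between the species.

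HuR TPM was below every LacZ liver in all HuR KD livers of both sets, at 2.37 to 4.05 against 4.77 to 6.17 in humanized livers and 3.72 to 5.62 against 8.58 to 10.7 in WT livers. Reads recovered from the TPM steps ranged from 2670469 to 20302454 per humanized liver and from 1423985 (LacZ 2) to 44668272 per WT liver. A pair of humanized livers stood apart: LacZ 2 and HuR KD 4 had 19891555 and 20302454 reads against at most 8342241 in the other 6, and they correlated more with each other (Pearson r = 0.965 over log2 values across genes) than any other humanized pair did (at most 0.931). Mitochondrial ribosomal RNA took 27.2 to 49.1% of TPM in humanized livers and 0% in WT livers, so TPM levels were also rescaled to nuclear protein-coding genes where the sets are placed side by side. Hepatocyte markers led the human RNA: ALB lay between 32380 and 73361 TPM, while the summed TPM of 5 endothelial markers stayed at or below 0.345, that of 6 macrophage markers at or below 3.59 and that of 6 lymphocyte markers at or below 0.424. Stellate markers summed to 1.26 to 4.34 TPM, and the 5 cholangiocyte markers were higher, at 5.46 to 26.9 TPM in HuR KD livers and 11.55 to 35.9 TPM in LacZ livers. In such bulk samples fewer cells of a type and less RNA per cell cannot be told apart.

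In the mouse genome (GRCm38) the identifiers of all 8 genes matched GENCODE M21 exactly. Cps1 lies on chr1:67123026-67231259 and Ass1 on chr2:31470207-31520672, both on the plus strand. Nags lies on chr11:102145513-102149477 and Otc on chrX:10252305-10321024, also on the plus strand. On the minus strand are Asl (chr5:130011258-130029247), Slc25a13 (chr6:6041218-6217173), Slc25a15 (chr8:22375551-22398597) and Arg1 (chr10:24915221-24927484). The longest coding transcripts range from 7 exons for Nags and Slc25a15 to 38 exons for Cps1. No human annotation was used here, and human genes are given by the names and identifiers of the table, such as CPS1 (ENSG00000021826.16) and OTC (ENSG00000036473.8).

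The level of mouse Ass1 is uncertain because of a near-identical copy. Of the 1647 stretches of 50 bases in the Ass1 transcript, 911 (55.3%) also occur in Gm5424, a processed pseudogene on chr10:62071123-62072362. Gm5424 was listed at 1238 to 2387 TPM in the WT livers, close to the range of Ass1 itself (1709 to 3429 TPM), and the log2 values of the pair had r = 0.98 over the 12 livers. Of the reads of the pair, 26.0 to 30.2% were counted on Gm5424, and they cannot be assigned to either gene from these values. With those reads added and expressed per length of Ass1, the LacZ median of Ass1 was 2934 TPM in place of 2136 TPM. No other member shared a stretch of 50 bases with the transcripts of another gene. In the human table, 11 pseudogenes named for ASS1 summed to 2.79 to 22.04 TPM, which was 1.15 to 3.41% of ASS1 in the same liver.

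The first comparison asked whether HuR KD changed the human urea cycle genes in humanized livers. The study called genes at an unadjusted p under 0.05 from DESeq2 on read counts. The same threshold was used here with another test, limma on log2(TPM + 1). By it 0 of 8 genes were called, where 11.5% of the 12738 human genes tested were. At an adjusted p under 0.05 the count was again 0 of 8, against 0.212% of all genes. The TPM ranges of HuR KD and LacZ livers overlapped for all 8 genes, while 7.16% of all genes had ranges that did not overlap.

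Among the mitochondrial enzymes, NAGS measured 6.64, 51.9, 18.0 and 10.3 TPM in LacZ livers 1 to 4 and 12.1, 15.1, 23.8 and 41.6 TPM in HuR KD livers 1 to 4. The highest value of each group was that of the deeply sequenced liver, and the fewest reads behind a value were 46, in LacZ 4. The log2 fold change of NAGS was 0.34 (SE 0.58, limma p = 0.569, adjusted p = 0.876, exact permutation p = 0.657). CPS1 measured 380.4, 582, 264 and 442 TPM in the LacZ livers and 404, 321, 311 and 653 TPM in the HuR KD livers. The groups overlapped over most of their range, with a log2 fold change of 0.01 (SE 0.30, limma p = 0.984, adjusted p = 0.997, exact permutation p = 1). OTC measured 328, 278, 266 and 358 TPM in the LacZ livers and 379, 320.1, 374 and 334 TPM in the HuR KD livers. The HuR KD values of OTC lay in the upper part of the LacZ range or just above it, and the log2 fold change was 0.20 (SE 0.14, limma p = 0.194, adjusted p = 0.653, exact permutation p = 0.143).

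Among the cytosolic enzymes, ASS1 measured 188, 1042, 280.5 and 261 TPM in the LacZ livers and 246, 229.6, 295 and 815 TPM in the HuR KD livers. Without the deeply sequenced liver of each group, ASS1 spanned only 188 to 295 TPM. Its log2 fold change was -0.02 (SE 0.56, adjusted p = 0.995), and the 95% confidence interval of the fold ran from 0.409 to 2.38. ASL measured 13.4, 47.4, 19.7 and 18.0 TPM in the LacZ livers and 14.2, 13.2, 18.6 and 41.6 TPM in the HuR KD livers, with a log2 fold change of -0.15 (SE 0.43, adjusted p = 0.937). For ARG1 the LacZ livers gave 215, 461, 201 and 229 TPM and the HuR KD livers 223, 168, 218 and 456 TPM, a log2 fold change of -0.07 (SE 0.35, adjusted p = 0.966). In all 3 genes the spread within each group came mainly from 1 liver, and the intervals were too wide to show a difference of the size seen between single livers.

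Of the carriers, SLC25A15 measured 29.5, 110.2, 24.9 and 36.6 TPM in the LacZ livers and 46.6, 35.6, 48.3 and 111 TPM in the HuR KD livers, a log2 fold change of 0.39 (SE 0.48, adjusted p = 0.819, exact permutation p = 0.514). Leaving out 1 deeply sequenced liver moved that estimate to 0.85 (without LacZ 2) or 0.05 (without HuR KD 4). SLC25A13 measured 66.6, 75.7, 76.6 and 64.9 TPM in the LacZ livers and 73.3, 82.7, 102 and 95.7 TPM in the HuR KD livers. Of its 4 HuR KD values 3 lay above all LacZ values, and the log2 fold change of 0.30 (SE 0.14, 95% interval -0.02 to 0.63) missed the threshold (limma p = 0.0616, adjusted p = 0.464, exact permutation p = 0.0857, where the smallest p the 70 groupings allow is 0.0286). Without the 2 deepest livers 1 member passed the unadjusted threshold, SLC25A15 (log2 fold change 0.51, adjusted p = 0.258), and the estimate of SLC25A13 was 0.30 and did not pass. Of all 12826 genes tested without those livers, 574 were called higher and 1437 lower. Dividing by median-of-ratios factors, which correct for how the bulk of genes shifts, gave 2 calls at unadjusted p, OTC (0.28) and SLC25A13 (0.39), with adjusted p of 0.368 and 0.262. With these factors 817 of all 12738 genes were called higher and 838 lower.

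**Figure D1:**
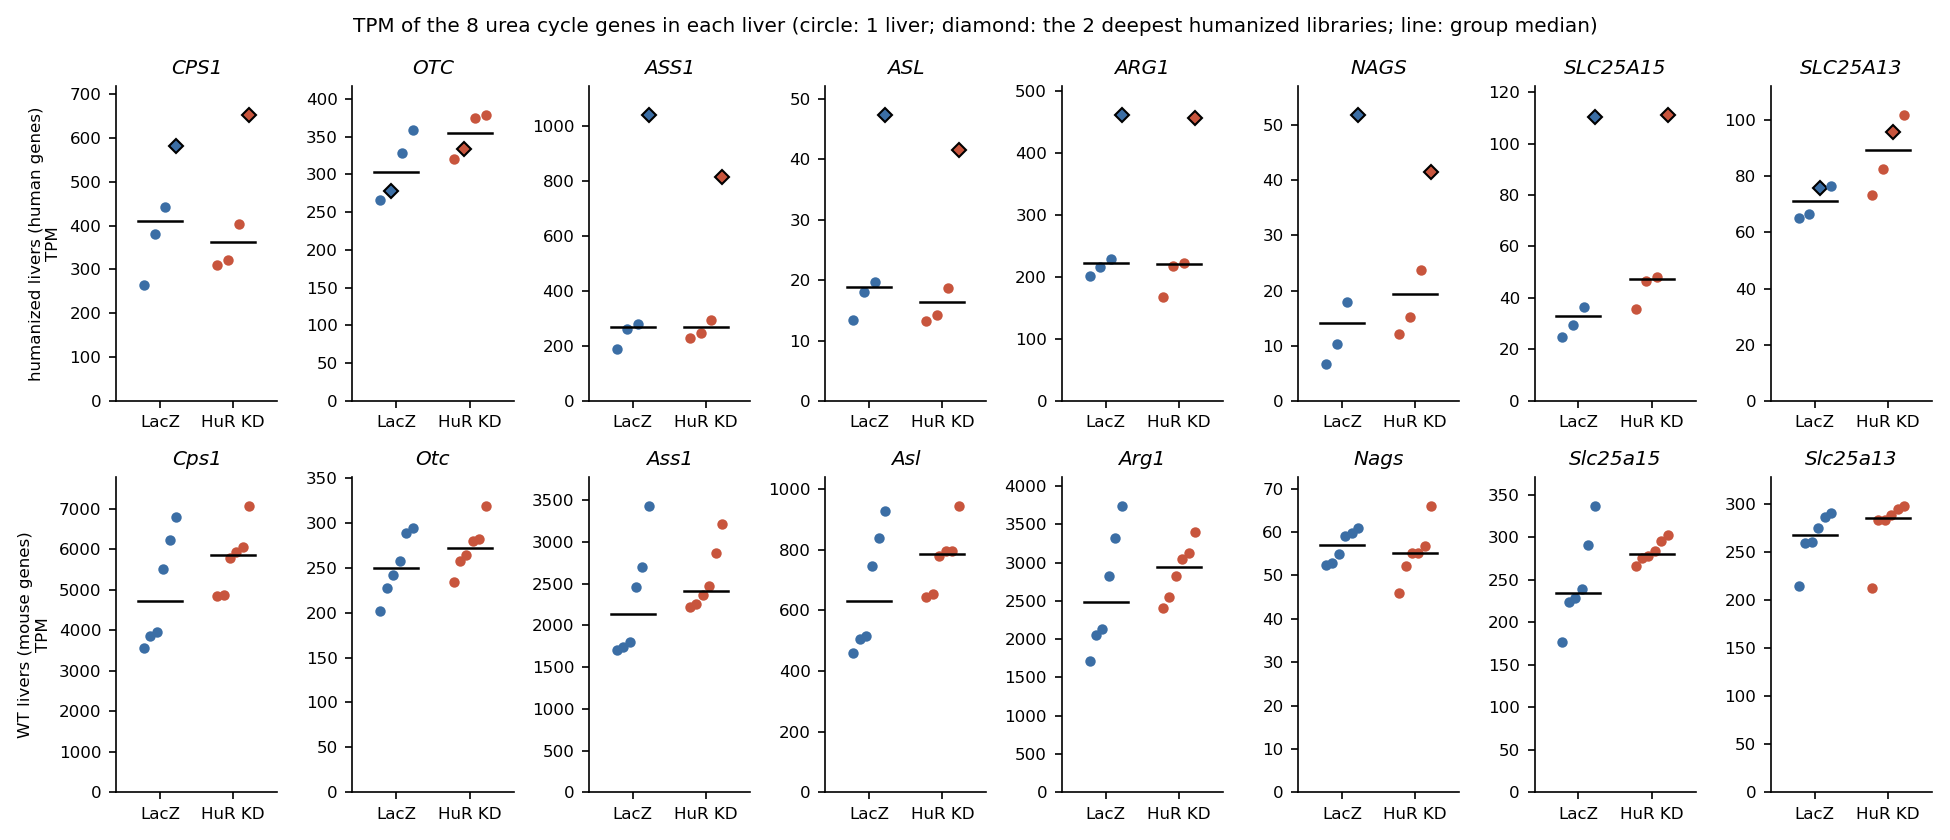
TPM of the 8 urea cycle genes (columns) in each humanized liver (upper row, human genes) and each WT liver (lower row, mouse genes), with LacZ in blue and HuR KD in red, linear axes from 0, and a line at each group's median. The ranges of the groups overlap in all 16 panels, and the 2 deepest humanized libraries (diamonds) lie far above the others for ASS1, ASL, ARG1, NAGS and SLC25A15 but not for OTC or SLC25A13.

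The same question was then put to the mouse genes in WT livers. Here too 0 of 8 genes were called at the unadjusted p under 0.05, where 16% of the 15090 mouse genes tested were, and 0 of 8 at an adjusted p under 0.05, where 0.888% were. The ranges overlapped for all 8 genes, against 2.49% of all genes without overlap. With 6 livers a group, the lowest, median and highest values are given.

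Nags lay at 52.3, 57.1 and 61.1 TPM in LacZ livers and at 46.0, 55.2 and 66.0 TPM in HuR KD livers, with a log2 fold change of -0.04 (SE 0.08, adjusted p = 0.839). This was the tightest of the 8 estimates, and its 95% interval allowed a fold between 0.862 and 1.09. Cps1 lay at 3569, 4735 and 6789 TPM in LacZ livers and at 4846, 5848 and 7065 TPM in HuR KD livers, a log2 fold change of 0.24 (SE 0.17, adjusted p = 0.553, exact permutation p = 0.206). The lower 3 LacZ livers lay under every HuR KD liver while the upper 3 lay among them. Otc lay at 202, 249 and 293 TPM in LacZ livers and at 234, 272 and 318 TPM in HuR KD livers, with a log2 fold change of 0.12 (SE 0.10, adjusted p = 0.61).

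Ass1 lay at 1709, 2136 and 3429 TPM in LacZ livers and at 2222, 2415 and 3214 TPM in HuR KD livers, a log2 fold change of 0.19 (SE 0.18, adjusted p = 0.655). Adding the reads of Gm5424 gave 0.18 (exact permutation p = 0.327). Asl lay at 459.5, 631 and 929 TPM in LacZ livers and at 645, 786 and 943 TPM in HuR KD livers, with a log2 fold change of 0.25 (SE 0.18, adjusted p = 0.553). Arg1 lay at 1714, 2480 and 3736 TPM in LacZ livers and at 2409, 2938 and 3401 TPM in HuR KD livers, with a log2 fold change of 0.18 (SE 0.18, adjusted p = 0.681). For these 3 enzymes, as for Cps1, LacZ livers 1, 2 and 6 were the lowest 3 of the 12 WT livers and LacZ liver 5 was the highest LacZ liver.

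Of the mouse carriers, Slc25a15 lay at 177, 234 and 337 TPM in LacZ livers and at 266, 281 and 303 TPM in HuR KD livers. Its HuR KD values were close together, with a standard deviation of 13.5 TPM against 56.0 TPM in LacZ livers, and 4 of the 6 LacZ livers lay below all of them. The log2 fold change was 0.21 (SE 0.12, limma p = 0.115, adjusted p = 0.449, exact permutation p = 0.152), and only without LacZ liver 5 did it pass the unadjusted threshold (0.30, p = 0.0127, adjusted p = 0.178). Slc25a13 lay at 214, 268 and 291 TPM in LacZ livers and at 213, 286 and 298 TPM in HuR KD livers, a log2 fold change of 0.06 (SE 0.10, adjusted p = 0.804).

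**Figure D2:**
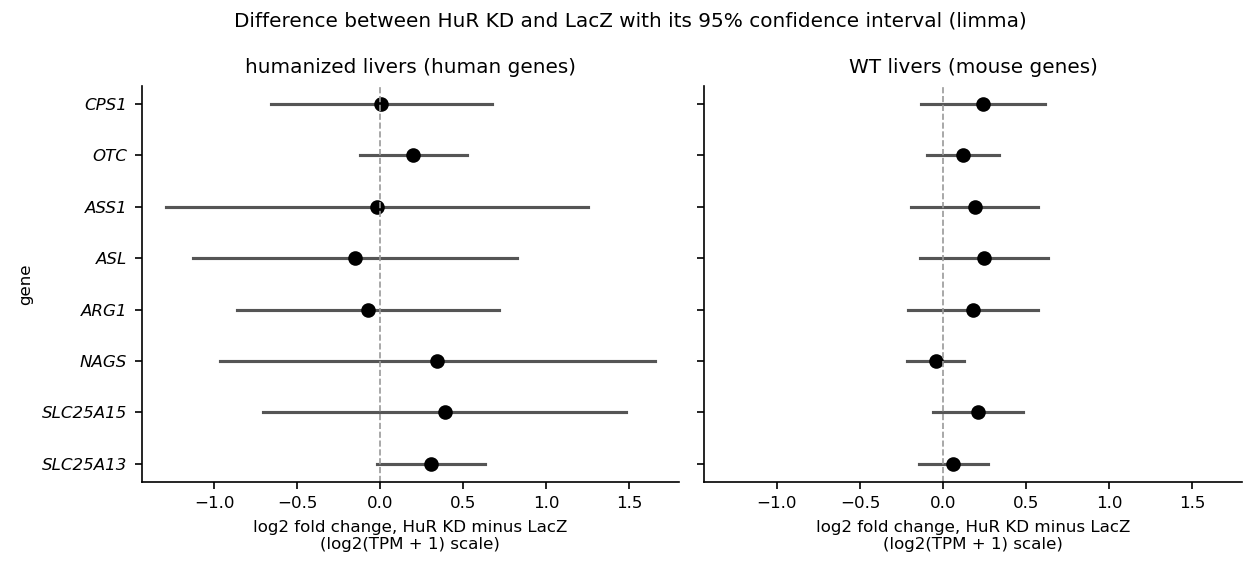
Log2 fold change of each urea cycle gene, HuR KD minus LacZ on the log2(TPM + 1) scale (horizontal axis), with its 95% confidence interval from limma, for human genes in humanized livers (left) and mouse genes in WT livers (right). All 16 intervals include 0, and those of ASS1, NAGS and SLC25A15 in humanized livers are the widest.

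Counted without regard to the test, 5 of 8 estimates were above 0 in humanized livers, where 42.7% of all genes were, and 7 of 8 were above 0 in WT livers, where 56.8% were. The median log2 fold change was 0.10 for the 8 human genes against -0.05 for all human genes, and 0.19 for the 8 mouse genes against 0.03 for all mouse genes. In a joint limma fit over 8202 genes with the same symbol in both tables, the response to HuR KD differed between the sets for 0 of the 8 genes at an unadjusted p under 0.05, where it did for 19.7% of all pairs, and for 0 of 8 at an adjusted p under 0.05, where it did for 5.01%. The differences, humanized minus WT, ran from -0.40 (SE 0.43, adjusted p = 0.662) for ASL to 0.39 (SE 0.50, adjusted p = 0.732) for NAGS. The smallest p was that of SLC25A13, with a difference of 0.24 (SE 0.17, p = 0.158, exact permutation p = 0.208 over 64680 joint groupings). Without humanized LacZ 2 the difference for NAGS was 0.93 and passed the unadjusted threshold (adjusted p = 0.107).

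HuR is known to bind AU-rich elements in 3′ untranslated regions (UTRs), of which the pentamer ATTTA is the usual core, and so the mouse transcripts were searched for it on the transcript strand, overlapping matches counted. Otc stood out with 7 copies in a 3′ UTR of 1122 bases: of the 2904 genes with a 3′ UTR of like length (0.8 to 1.25 times its own), 79.7% held at least 1 copy but only 3.34% held as many. Among the others, 3 held none (Ass1, Asl and Nags, whose 3′ UTRs have 255, 52 and 406 bases), Arg1 held 1, and Cps1, Slc25a15 and Slc25a13 held 2 each. The first 3 copies in Otc, at bases 116, 254 and 399 of the 3′ UTR, are shown with the pentamer in capitals because this was the member richest in the element. Copies of the pentamer are a description of the sequence, and Otc was not called in either set.
Otc, base 116: ggaaagagaagaATTTAaaattgtaaacac
Otc, base 254: acactctcttcaATTTAcaacctctgaatg
Otc, base 399: tcattcatgctcATTTAtaaataaacattt

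Control levels were then set side by side. The tables were normalised separately, so no test was made across them. In humanized LacZ livers CPS1 had the highest median (411 TPM, range 264 to 582), followed by OTC (303, range 266 to 358), ASS1 (271, range 188 to 1042) and ARG1 (222, range 201 to 461). These 4 overlapped, and OTC and ASS1 kept their order in only 2 of 4 livers. A gap then separated ARG1 from SLC25A13 (71.2 TPM, range 64.9 to 76.6), with no overlap. SLC25A15 (33.0, range 24.9 to 110.2), ASL (18.9, range 13.4 to 47.4) and NAGS (14.1, range 6.64 to 51.9) followed, each overlapping its neighbour. ASL and NAGS kept their order in 3 of 4 LacZ livers.

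In WT LacZ livers the order was Cps1 (median 4735 TPM), Arg1 (2480), Ass1 (2136), Asl (631), Slc25a13 (268), Otc (249), Slc25a15 (234) and Nags (57.1). Cps1 lay above Arg1 in 6 of 6 livers. Ass1 and Asl, Asl and Slc25a13, and Slc25a15 and Nags did not overlap. Slc25a13 and Otc kept their order in 3 of 6 livers and Otc and Slc25a15 in 4 of 6, so these 3 genes could not be ranked. Adding the reads of Gm5424 to Ass1 would place its median above that of Arg1.

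OTC held very different shares of the summed TPM in the sets. It made up 24.2% of the summed TPM of the 8 genes in humanized LacZ livers (median, range 10.503 to 26.7%) but 2.59% in WT LacZ livers (range 1.44 to 3.15%). ASL differed the other way, at 1.49% (range 1.09 to 1.79%) against 5.90% (range 5.10 to 6.16%), and CPS1 was at 27.0% (range 21.98 to 31.1%) against 43.5% (range 42.3 to 45.5%). None of these 3 pairs of ranges overlapped. Within single livers the CPS1 to OTC ratio ran from 0.83 to 2.09 over the 8 humanized livers and from 13.4 to 30.8 over the 12 WT livers. The ASS1 to ASL ratio ran from 14.1 to 21.98 against 2.94 to 3.72, or 4.03 to 5.10 in WT LacZ livers with the reads of Gm5424 added. These ratios do not depend on how a library is scaled, but they do depend on the gene length by which each TPM was divided. In humanized LacZ 1, 16073 reads of CPS1 gave 380.4 TPM and 2147 reads of OTC gave 328 TPM. In WT LacZ 1, 304039 reads of Cps1 gave 3872 TPM and 17310 reads of Otc gave 289 TPM. The lengths of this pair thus stood in unlike proportion in the sets. Their part in these shares and ratios was not tested.

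**Figure D3:**
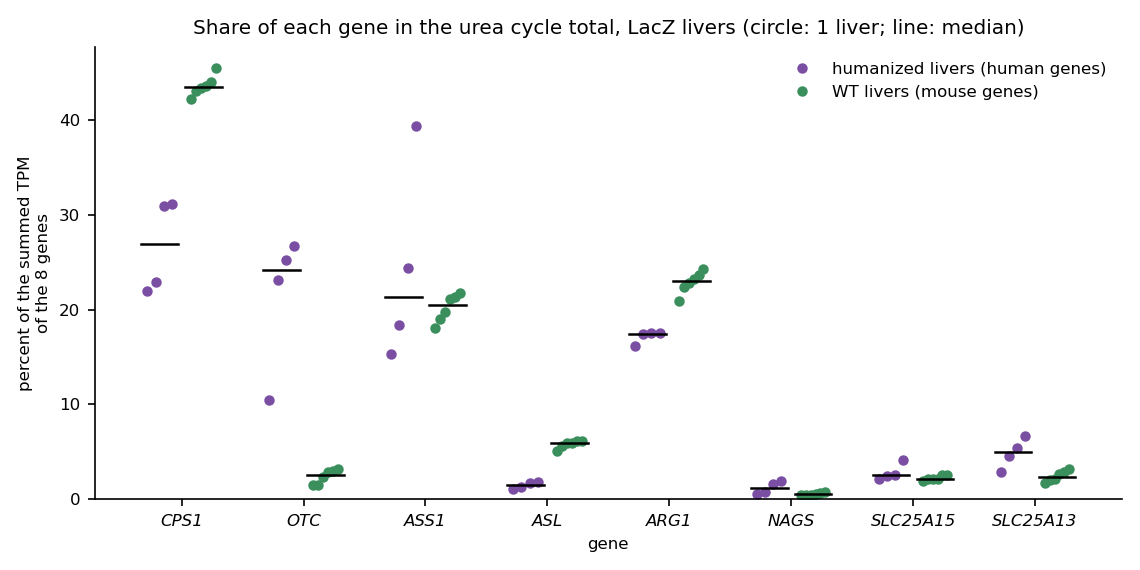
Share of each gene in the summed TPM of the 8 urea cycle genes (vertical axis, percent, from 0) in the 4 humanized LacZ livers and the 6 WT LacZ livers; circles are livers and lines medians. OTC holds 24.2% of the human total but 2.59% of the mouse total, while CPS1 and ASL hold more of the mouse total. The shares depend on the gene lengths behind each TPM, which are not given.

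On the scale of nuclear protein-coding genes, mouse medians were above human ones for 7 genes. The mouse to human ratio of medians was 14.3 for ASL, 4.96 for CPS1 and 4.77 for ARG1, and for these 3 every WT LacZ liver lay above every humanized LacZ liver. OTC was the reverse, at 0.318, with every WT LacZ liver below every humanized one. ASS1 (3.37, or 4.66 with the reads of Gm5424), SLC25A15 (3.07), NAGS (1.71) and SLC25A13 (1.49) had overlapping ranges. Together the 8 genes made up 0.375 to 0.993% of nuclear protein-coding TPM in humanized livers and 1.09 to 2.04% in WT livers. Of all TPM, mitochondrial ribosomal RNA included, they made up 0.115 to 0.265% and 0.822 to 1.58%. The study aligned the humanized livers to a joined human and mouse genome and the WT livers to the mouse genome alone. Species, strain, host, age, cell history, alignment reference, annotation and the gene lengths behind TPM all differ between the tables. They cannot be told apart here.

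The largest differences among humanized livers were not between the virus groups. LacZ 2 and HuR KD 4, chosen by read number, both lay above all the other 6 livers for 6 of the 8 genes, where 7.14% of all genes tested did so and 13.2% lay below all 6. No test was made, since these are libraries and not groups of the study. The ratio of their mean TPM to that of the other 6 was 3.71 for ASS1, 3.26 for NAGS, 2.999 for SLC25A15, 2.75 for ASL, 2.19 for ARG1 and 1.75 for CPS1. OTC (0.907) and SLC25A13 (1.103) lay within the range of the others. After rescaling to nuclear protein-coding genes the same 6 genes lay above, where 16.3% of genes did and 9.03% lay below, and the ratio ran from 1.99 for CPS1 to 4.23 for ASS1. The CPS1 to OTC ratio was 1.96 and 2.09 in the pair against 0.83 to 1.23 in the other 6.

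**Figure D4:**
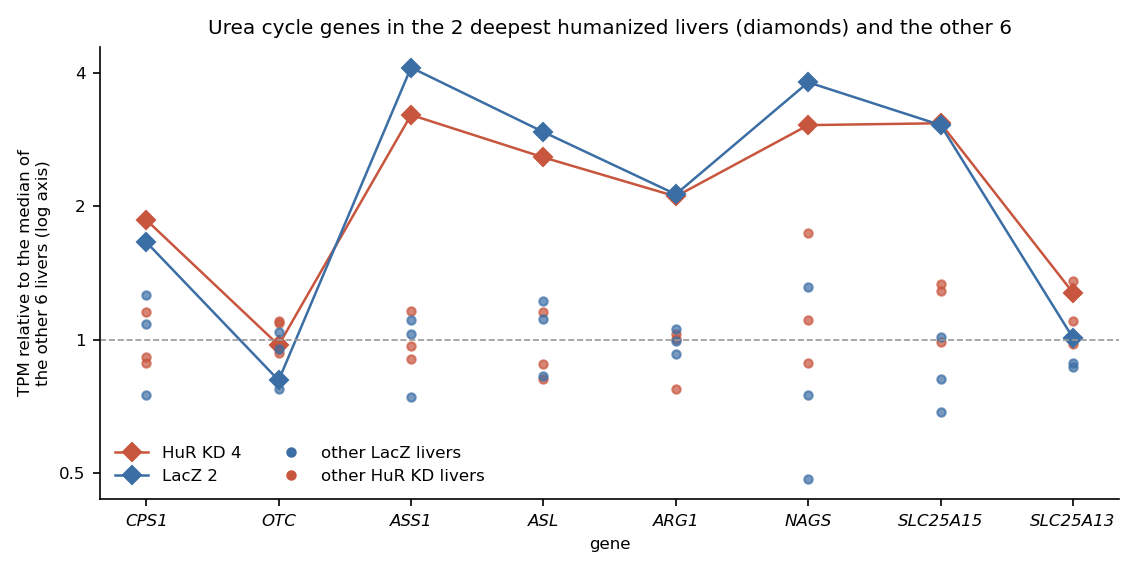
TPM of each urea cycle gene relative to the median of the 6 less deeply sequenced humanized livers (vertical log axis; dashed line at 1), with LacZ 2 and HuR KD 4 as joined diamonds and the other 6 livers as circles. The pair runs together, at 3.71 times the mean of the others for ASS1 but within their range for OTC and SLC25A13.

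Lists of other genes of nitrogen handling differed in how they stood in that pair of libraries. Of the 13 tested genes of amino acid breakdown, 9 lay above all the other 6 livers and 1 below. Of 6 plasma membrane carriers 3 lay above and 0 below, and of 9 genes that bring nitrogen in 3 lay above and 1 below. Genes of arginine and ornithine use went both ways, with 3 of 10 above and 3 below, and of 13 regulators 2 lay above and 1 below. Of 9 hepatocyte markers 1 (CPS1) lay above and 4 lay below, ALB among them. Of 7 periportal markers 6 lay above, including ASS1 and CPS1 themselves, and 1 below. Of 8 pericentral markers 4 lay above and 0 below. Read number, mitochondrial ribosomal RNA (49.1% of TPM in both, at most 36.05% in the others) and these marker lists differed together, and their part in the levels was not tested.

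Across the 12 WT livers 5 of the mouse genes varied together. Cps1, Ass1, Asl, Arg1 and Slc25a15 had Pearson r from 0.78 to 0.98 in all 10 of their pairs on the log2 scale (Spearman rho 0.71 to 0.96; permutation p from 1e-05, the smallest that 100000 resamples can give, to 0.00223; adjusted over 28 pairs from 0.00014 to 0.00624). Cps1 with Asl was the closest pair, and Ass1 with Slc25a15 the loosest. Leaving out the 2 livers farthest from the median gave r from 0.66 to 0.98, and r after centring each virus group ran from 0.75 to 0.98. Without LacZ 2, the shallowest library, the lowest r was 0.75. All pairs share the same libraries and the same scaling to TPM. The 5 genes were grouped by these same r values, so the p-values do not test the grouping. How often other pairs of liver genes reach such r is not given here.

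The other 3 mouse genes did not follow that pattern. Otc had r from -0.22 to 0.08 with the 5 genes, Nags from -0.14 to 0.24 and Slc25a13 from 0.03 to 0.55, and 0 of these 15 pairs passed an adjusted or an unadjusted p under 0.05 (smallest permutation p = 0.0654). Nags and Slc25a13 had r = -0.63 with each other (permutation p = 0.0334, adjusted p = 0.085). In the 6 humanized livers left without the deepest pair, 0 of 28 pairs passed the adjusted threshold and 4 passed the unadjusted one (exact permutation over 720 orders), led by OTC with SLC25A15 (r = 0.91, p = 0.00833, adjusted p = 0.233). The humanized livers form separate clusters by depth, so no r over all 8 is given for pairs of genes.

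**Figure D5:**
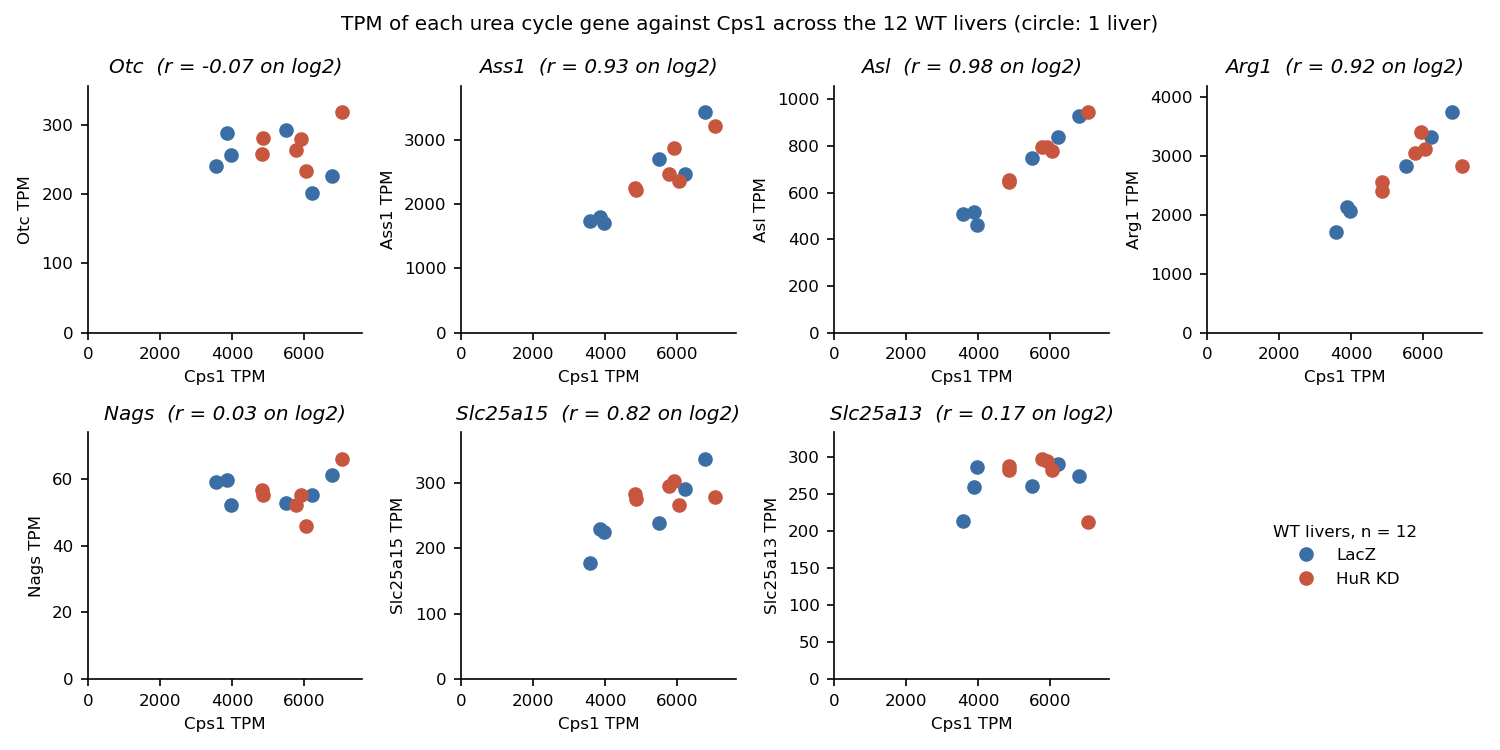
TPM of each other urea cycle gene (vertical axes) against Cps1 TPM (horizontal axes) in the 12 WT livers, LacZ in blue and HuR KD in red, with Pearson r of the log2 values above each panel. Ass1, Asl, Arg1 and Slc25a15 lie along a line with Cps1, with r of 0.82 or more, while Otc, Nags and Slc25a13 do not.

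The promoters of a gene from each side are shown, Ass1 from the 5 genes that varied together and Otc from the rest, as RefSeq gives them on GRCm38.p6 (250 bases before the start and 50 after; promoters of 5 of the 8 genes were matched). The window of Ass1 is chr2:31470020-31470319 and that of Otc chrX:10252055-10252354, both on the plus strand. Capitals mark any match, on either strand, to any of 4 motifs that do not overlap each other here. These are TATAAA (the TATA box), then CCAAT (the CCAAT box), the SP1 core GGGCGG and the cAMP response core TGACG.
Ass1: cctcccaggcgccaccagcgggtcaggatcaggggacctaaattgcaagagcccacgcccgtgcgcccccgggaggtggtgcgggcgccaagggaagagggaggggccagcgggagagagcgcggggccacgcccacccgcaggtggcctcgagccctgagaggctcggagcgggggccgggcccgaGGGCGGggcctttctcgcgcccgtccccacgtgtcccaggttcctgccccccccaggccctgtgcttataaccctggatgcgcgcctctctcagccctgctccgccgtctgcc
Otc: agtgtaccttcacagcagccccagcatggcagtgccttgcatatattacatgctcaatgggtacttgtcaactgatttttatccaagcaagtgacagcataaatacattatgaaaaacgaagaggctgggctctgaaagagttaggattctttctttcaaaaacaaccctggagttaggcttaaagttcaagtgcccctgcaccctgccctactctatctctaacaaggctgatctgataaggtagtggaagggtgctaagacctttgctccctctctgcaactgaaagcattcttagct

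The window of Ass1 held 74% G and C, 27 CG dinucleotides and 1 GGGCGG, 63 bases before the start. The window of Otc held 44.3% G and C, 1 CG dinucleotide and none of the 4 motifs. Over 32544 distinct promoters the median was 53% G and C (quartiles 46 and 61.7%) and 7 CG dinucleotides (quartiles 3 and 20), so the windows lie on opposite sides of the middle range. GGGCGG occurs in 35.9% of those promoters, CCAAT in 37.4%, TGACG in 20.9% and TATAAA in 13.6%. The windows of Slc25a15, which varied with Ass1, and of Nags, which did not, also held GGGCGG. Otc does not stand for the other genes outside the group that varied together. Slc25a13 held 65% G and C with 17 CG dinucleotides, and Nags held 57.7% with 14, above both medians as Ass1 was. The windows of Slc25a15 held 60.7% and 79% G and C.

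By likeness to the mean of the 8 genes, the closest other genes in WT livers (n = 12, 6819 genes with a mean of at least 10 TPM) were Mat1a (r = 0.95), which makes S-adenosylmethionine, Fh1 (r = 0.95), the fumarase that takes up the fumarate ASL releases, and Nnmt (r = 0.95), a nicotinamide methyltransferase. Without LacZ 2 the closest were Gm5424, the copy of Ass1, then Gm5096 and Fh1. Over the 8 humanized livers they were GNMT (r = 0.98), CTH (r = 0.97) and AASS (r = 0.97), enzymes of glycine methylation, cysteine synthesis and lysine breakdown. These rested on the deepest pair of libraries: without the 2 farthest livers r was 0.85, 0.62 and 0.60. Without the deepest pair the closest were NCOA4, KEAP1 and CYP8B1.

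Genes around the cycle were taken from 5 lists, called at the same unadjusted p under 0.05, at which 3.6% of the tested human genes rose and 7.87% fell, while 9.09% of the tested mouse genes rose and 6.94% fell. Of those that bring nitrogen in, 0 of 9 human and 2 of 9 mouse genes were called, both higher; the first was Got2, the mitochondrial aspartate aminotransferase, which rose with HuR KD from a median of 171 to 198 TPM (log2 fold change 0.19, adjusted p = 0.214). Of the genes that use arginine and ornithine, 1 of 10 human genes rose and 1 fell. AGMAT, an agmatinase-family enzyme, fell from a median of 65.9 to 44.8 TPM (log2 fold change -0.55, adjusted p = 0.147). In WT livers 1 of 9 rose, Odc1, which makes putrescine from ornithine, from 46.6 to 62.8 TPM (log2 fold change 0.42, adjusted p = 0.0893).

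Of the carriers of amino acids, ammonia and urea in the plasma membrane, 1 of 6 human genes was called. This was SLC1A2, a glutamate carrier, whose median rose from 17.8 to 35.5 TPM (log2 fold change 0.93, adjusted p = 0.0573), with 31.1 TPM as the lowest HuR KD value and 22.3 TPM as the highest LacZ value. Of 7 mouse genes 1 rose and 1 fell. Slc38a4, a carrier of neutral amino acids, fell from a median of 1083 to 727 TPM (log2 fold change -0.51, SE 0.08, adjusted p = 0.00928), without overlap of the groups. The human SLC38A4 had a log2 fold change of 0.41, which did not pass (adjusted p = 0.479), and the responses of the pair differed by 0.93 (SE 0.19, adjusted p = 0.00664 over all pairs).

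Of the genes of amino acid breakdown, TDO2, a tryptophan dioxygenase, is listed at 0 in every humanized liver. The reason for this 0 was not tested. Of 14 mouse genes of that list 3 rose and 1 fell, the latter being Gpt2, an alanine aminotransferase, from 652 to 554 TPM (log2 fold change -0.34, adjusted p = 0.169). Of the regulators known for urea cycle genes, 2 of 13 human genes rose and 1 fell. SIRT5, a deacylase that acts on CPS1, rose from a median of 6.70 to 13.1 TPM (log2 fold change 0.89, adjusted p = 0.104). Of 14 mouse regulators 0 rose and 2 fell, with Cebpb, a transcription factor, going from 198 to 132 TPM (log2 fold change -0.53, adjusted p = 0.134). The glucocorticoid receptor gene was the only gene of these 5 lists called in both sets, with a log2 fold change of -0.66 for NR3C1 (adjusted p = 0.171) and -0.21 for Nr3c1 (adjusted p = 0.27). Except for Slc38a4, none of these passed an adjusted p under 0.05.

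Marker lists moved beside these genes in places. In humanized livers 1 of the 3 cholangiocyte markers tested was lower with HuR KD, EPCAM (log2 fold change -1.17, adjusted p = 0.424), and the estimates of KRT7 (-0.83) and SOX9 (-0.46) did not pass. In WT livers 1 of 5 endothelial markers was higher and 1 of 6 stellate markers was lower. Of the mouse markers of other kinds, 2 of 6 macrophage markers were lower with HuR KD (summed TPM 184 to 336 against 284 to 388 in LacZ), 3 of 7 periportal markers were higher, and of 8 pericentral markers 1 was higher and 2 were lower (summed TPM 10510.5 to 12332 against 12886 to 15356). In humanized livers 0 of 7 periportal and 3 of 8 pericentral markers were higher, with summed TPM of 1090 to 1492 against 592 to 1229 for the latter. The part of these lists in the values of the urea cycle genes was not tested.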

How the data were processed

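RNA-seq of 20 livers was analysed from the TPM tables that the authors deposited, 1 for human genes of humanized livers and 1 for mouse genes of WT livers. The submitters' processing notes name Trim Galore, HISAT2, featureCounts and the builds GRCh38 and mm10; libraries were stranded, from total RNA. How the authors computed TPM and gene lengths is not given in the sources used here. Groups came from sample titles, and replicate livers were separate mice. TPM keeps no depth by itself, so whole reads were recovered from the steps between libraries (tolerance 0.02; 100% of 18702 human and 25110 mouse genes with values in at least 4 livers came out whole); intervals from them would cover counting error only.

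Each set was fitted with limma 3.58.1 in R 4.3.3 (lmFit, eBayes with trend) on log2(TPM + 1), which understates changes of low genes, for genes with a mean of at least 1 TPM. Genes were called at an unadjusted p under 0.05, with Benjamini-Hochberg adjusted p beside it. Single genes were tested by two-sided exact permutation of livers (scipy 1.17.1), with smallest p of 0.0286 and 0.00216. In simulated tables of 12738 and 15090 genes with independent noise, 200 random genes were shifted by 1 log2 unit, and 85% and 96% of these were called. These shares are means over random genes and do not give the power for a member. Among the members in humanized livers the SE ran from 0.14 for OTC to 0.58 for NAGS. Named genes were the 8 members and HuR, the called gene of smallest p in each list and set, any gene called in both sets, and the 3 genes most like the members (the human call among amino acid breakdown genes is not reported here); Gm5424, the ASS1 pseudogenes, TDO2, ALB, EPCAM, KRT7 and SOX9 were named after their values were seen. The members, lists and tests were chosen with earlier results of these data known. Mouse transcripts are GENCODE M21, and 3′ UTRs are those of the transcript with the longest coding sequence. Alternatives were the pseudocount, the filter, scaling by median-of-ratios factors, quantiles or nuclear protein-coding genes, the variance model, a replicate block and leaving out each liver. Added after seeing the data were array weights, voom on the recovered reads, leaving out or blocking the 2 humanized livers with over 10000000 reads, and adding the reads of Gm5424 to Ass1.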

Additional observations from a re-analysis of the deposited data

Results flagged for a closer look

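Within each group of livers, the gap of the highest or lowest liver to its neighbour was compared with the group's range for each of the 8 genes (Dixon's 95% critical value). Of 32 such tests 6 passed, where the nominal rate of the test would pass about 1.6. The genes share the same livers, so the tests are not independent. The share of all genes that pass is not given here, so the count says nothing particular to these 8 genes. In humanized HuR KD livers, liver 4 was high for ASS1 (815 TPM, next highest 295) and SLC25A15 (111 TPM, next highest 48.3). In humanized LacZ livers, liver 2 was high for ASS1 (1042 TPM, next highest 280.5), ARG1 (461 TPM, next highest 229) and SLC25A15 (110.2 TPM, next highest 36.6). These are the 2 most deeply sequenced humanized libraries. In WT HuR KD livers, liver 6 was low for Slc25a13 (213 TPM, next lowest 283); it was the shallowest HuR KD library of that set, with 12960373 reads, and had the highest Cps1 (7065 TPM) of the 12 WT livers. Among the 8 genes, no difference in the response between the sets passed an adjusted p under 0.05.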

How the results depend on the processing

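The count of called members in humanized livers was 0 as reported. It was 2 (OTC and SLC25A13) with median-of-ratios factors, with quantile normalization and after rescaling to nuclear protein-coding genes. SLC25A13 alone was called with no filter on low values, with voom on recovered reads and with the 2 deepest livers as a block. Without those livers only SLC25A15 was called. Thus SLC25A13 was called in 6 of 12 alternatives other than leaving out single livers, at adjusted p of 0.225 or more. Over all genes, calls were 817 higher and 838 lower of 12738 with median-of-ratios factors, 778 and 867 with quantiles, and 691 and 739 of 9913 after rescaling. They were 621 and 1248 of 30819 with no filter, 585 and 741 of 12385 with voom, and 645 and 1275 of 12738 with the block. Leaving out each liver gave 0 to 1: SLC25A15 without LacZ 2 and SLC25A13 without HuR KD 1. Over all genes the calls were then 524 higher and 1434 lower of 12766, and 404 and 737 of 12747. In WT livers the count of called members stayed at 0 under every alternative but leaving out single livers (0 to 1). The 1 call was Slc25a15 without LacZ 5, where 1238 of 15123 genes were called higher and 1186 lower. For a different response between the sets the count was 1 with median-of-ratios factors (SLC25A13), 1 without the 2 deepest livers (NAGS), and 0 to 1 on leaving out single livers. Over all pairs the calls were 1689 of 8202 with the factors, 2137 of 8213 without the deepest livers and 2033 of 8210 without humanized LacZ 2. The smallest adjusted p of any member under any alternative was 0.178 within a set (Slc25a15, without WT LacZ 5) and 0.107 for the difference between sets (NAGS, without humanized LacZ 2). The cause of these shifts was not tested.

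Estimates near 0 changed sign in humanized livers. CPS1 was -0.0471 without the 2 deepest livers, and -0.23 to 0.18 on leaving out single livers. ASS1 was 0.0636 with median-of-ratios factors, 0.072 after rescaling, 0.14 with array weights, 0.0506 with voom, 0.0909 without the 2 deepest livers, and -0.44 to 0.51 on leaving out single livers (0.51 without LacZ 2). ARG1 was 0.00925 with median-of-ratios factors, 0.00784 with quantile normalization, 0.0172 after rescaling, 0.00844 with array weights, and -0.37 to 0.20 on leaving out single livers. ASL ran from -0.50 to 0.21 and NAGS from -0.0456 to 0.89 on leaving out single livers, and in WT livers Nags ran from -0.10 to 0.00686. None of these passed the threshold.

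Rescaling to nuclear protein-coding genes moved LacZ medians to 1240.0 (CPS1), 1025 (OTC), 824 (ASS1), 57.4 (ASL), 678 (ARG1), 43.7 (NAGS), 99.4 (SLC25A15) and 233 (SLC25A13) in humanized livers. In WT livers it moved them to 6148 (Cps1), 325 (Otc), 2779 (Ass1), 823 (Asl), 3234 (Arg1), 74.7 (Nags), 305 (Slc25a15) and 347 (Slc25a13). Without rescaling, adding the reads of Gm5424 moved the WT LacZ median of Ass1 from 2136 to 2934 TPM.

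Livers that share a replicate number did not pair: their deviations correlated from -0.25 to 0.14 in humanized and from -0.14 to 0.21 in WT livers, and 1 of 4 and 2 of 6 correlated best with their own number. With the replicate number as a block the count of called members was 0 in each set and 0 for the difference between sets, and the genes called at an adjusted p under 0.05 over all genes went from 27 to 0 and from 134 to 17. Over all human genes, 458 were higher and 1003 lower at an unadjusted p under 0.05, against 817 and 838 with median-of-ratios factors. Adjusted calls over all genes ran from 0 (without trend) to 127 (deepest livers as a block) in humanized livers when all livers were kept, and from 17 (replicate block) to 1717 (array weights) in WT livers; voom on recovered reads gave 63 and 530, and leaving out livers gave 0 to 172 and 30 to 371. NAGS rested on as few as 46 reads in a humanized liver, a counting error of 14.7%.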
